A study of Mus musculus with 6 samples.

Results

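The genes described are 31 of the 17023 in the deposited gene table. They comprise the transcription factor ATF4 and other regulators of the integrated stress response, enzymes that make serine, asparagine, proline and mitochondrial folate units, and amino acid transporters of the plasma membrane. They were taken by gene symbol, and all 31 had 1 row each and passed the filter on low counts. RNA had been measured in primary airway smooth muscle cells from the lungs of wild-type mice after 5 days in transwell plates, in which a porous membrane separates cell layers that share the medium. In 3 samples (co-culture) the plate also held mouse airway epithelial cells, and in 3 samples (control) it did not. The sources used here do not tell if replicate samples are separate cultures or animals, so the p-values rest on a spread that may be technical only.

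The integrated stress response is set off when kinases phosphorylate the translation factor eIF2 alpha, for example on amino acid shortage or on stress in the endoplasmic reticulum. General translation then slows while the ATF4 mRNA is translated more efficiently, so that ATF4 is controlled largely at the level of protein. ATF4 pairs with other leucine zipper proteins, among them C/EBP factors, and binds C/EBP-ATF response elements near genes for amino acid synthesis and uptake. In proliferating smooth muscle and fibroblasts the same enzymes supply serine, glycine and proline for nucleotides and for collagen.

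Total estimated counts were 17496056 to 18496623 per library. Control libraries carry the numbers 4 to 6 of the deposited columns. In a chi-square of counts over genes, divided by its degrees of freedom, pairs of co-culture libraries gave 3.98 to 6.51 and controls 5 and 6 gave 3.18. Control library 4 gave 91.7 and 99.9 against these controls, so it stood apart, and results that turn on it are given both ways. Of 10 smooth muscle markers all had counts. Their summed level was 330.4 to 380.6 counts per 1000000 (CPM) in co-culture and 414 to 447 CPM in controls, but the defining contractile markers Myh11, Cnn1 and Des averaged 0.36 to 1.25 CPM in either group. Of the 9 smooth muscle markers that passed the filter, 1 rose, 3 fell and 5 did not pass, against 10.3% of all genes called in each direction. In 3 of the 9 every co-culture library was above every control, and in 4 every one was below. Among those that fell, Acta2 averaged 60.3 CPM with co-culture and 136 CPM in controls, and Tagln 13.1 and 36.5 CPM. Of 16 airway epithelial markers 13 had a row and 2 passed the filter. Their sum was 8.44 to 9.76 CPM with co-culture and 17.8 to 26.1 CPM in controls, mostly Krt18, and Krt5, Krt14 and Cldn4 were at 0 in co-culture on average. The 12 leukocyte markers, of which 11 had a row and Cd3e had none, summed to 65.1 to 71.6 CPM with co-culture and 84.8 to 139 CPM in controls, highest in control library 4. Of 8 endothelial markers, summed at 2.59 to 3.80 CPM in any library, 7 had a row. The 10 fibroblast markers summed to 13230 to 14260 CPM with co-culture and 14330 to 18400 CPM in controls. The part of these markers in the results was not tested, and in bulk RNA fewer cells of a type cannot be told apart from less RNA per cell.

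In co-culture, 7 of the 31 genes fell, 1 rose and 23 did not pass. Those that fell were Trib3, a pseudokinase that binds ATF4; Mthfd2, a mitochondrial folate enzyme; the cationic amino acid transporter Slc7a1; the large neutral amino acid transporter Slc7a5; the transcription factors Atf5 and Atf4; and asparagine synthetase, Asns. The gene that rose was Slc38a2, a sodium-coupled transporter of small neutral amino acids. A call is a Benjamini-Hochberg adjusted p under 0.05 in edgeR's quasi-likelihood test, a rule that called 20.6% of the 12936 genes tested, 10.3% higher and 10.3% lower. The 8 calls among 31 members are near that background, and whether their lean towards lower calls differs from that of all genes was not tested. The median log2 fold change of co-culture over control was -0.18 over the members and -0.04 over all genes tested, and 20 members were lower and 11 higher. With library totals and no scaling factor, the median of all genes was 0.06 and that of the members -0.09, 2 members rose and 4 fell, and 68.1% of all calls were higher, against 50.1% with the factors. In 14 members the groups did not overlap, 12 lower and 2 higher, against 42.9% of all genes, 22.5% lower and 20.4% higher. Without control library 4, 13 members fell and 2 rose, all 8 of the calls made with every library among them, while that fit called 38.6% of all genes.

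**Figure D1:**
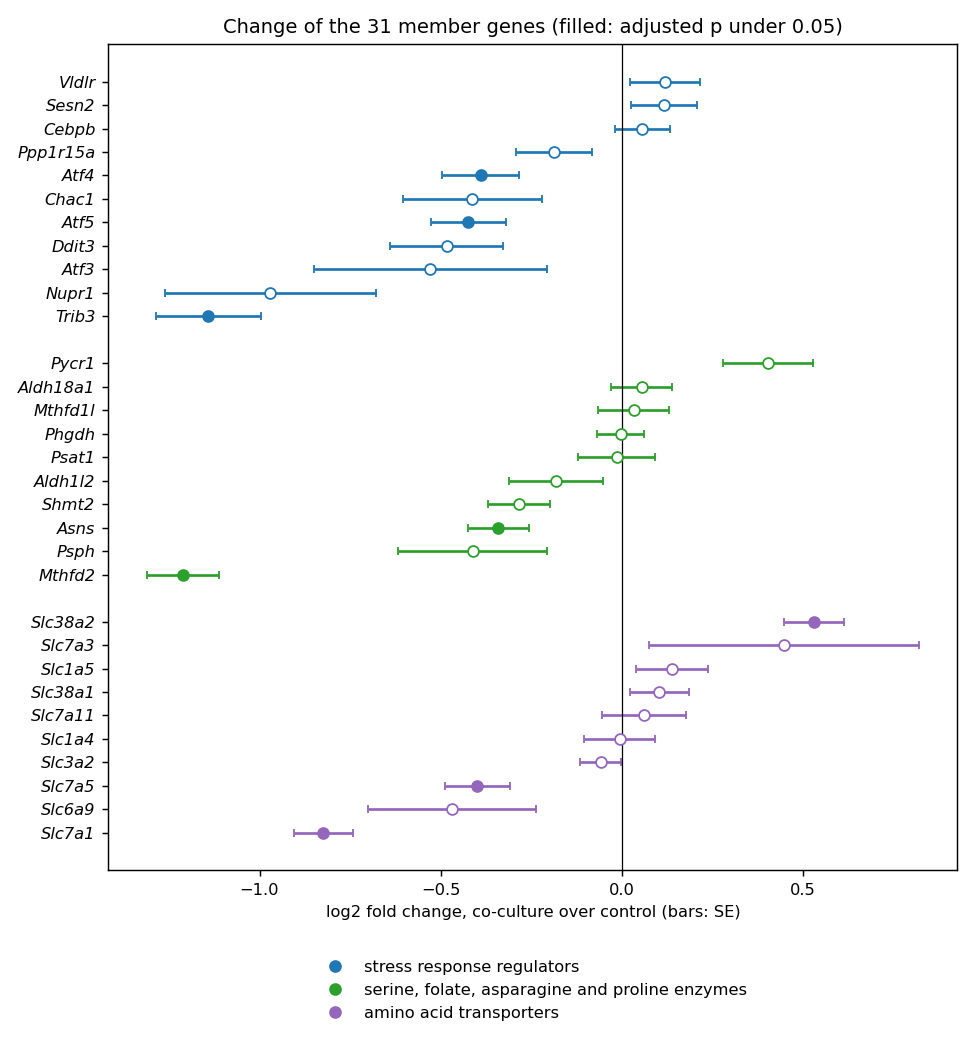
Log2 fold change of co-culture over control (x axis; bars are standard errors) for the 31 genes (y axis), grouped by role and coloured by it, with filled points at an adjusted p under 0.05. Trib3 and Mthfd2 lie below -1, Slc38a2 is the filled point above 0, and Phgdh, Slc1a4 and Psat1 lie closest to 0.

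The ATF4-binding element was looked for in the promoters of the members, because ATF4 is known to bind it near genes of this kind. The core letters TGATGNAA were searched on both strands of RefSeq promoter windows (GRCm38.p6) that run from 250 bases before to 50 bases after the start of a gene. Of 26 members with a window, 9 held the core, against 4.51% of 27025 genes. The exact TGATGCAA was held by 7 of the 26 and by 1.03% of genes. The members are a list of genes known for their link to ATF4, so this share describes the list and not these samples. The matches follow in windows of 30 bases, each on the strand on which the core reads TGATGNAA, with the core in capitals; positions are counted from the gene start at +1.
Asns, chr6:7693214-7693243, minus strand: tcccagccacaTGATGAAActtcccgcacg
Trib3, chr2:152344028-152344057, plus strand: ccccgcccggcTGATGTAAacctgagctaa
Atf3, chr1:191183425-191183454, plus strand: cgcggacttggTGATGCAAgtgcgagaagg
Chac1, chr2:119351038-119351067, minus strand: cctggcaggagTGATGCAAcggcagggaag
Nupr1, chr7:126625562-126625591, plus strand: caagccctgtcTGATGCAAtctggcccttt
Pycr1, chr11:120643833-120643862, minus strand: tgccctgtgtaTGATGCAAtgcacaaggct
Slc1a4, chr11:20332699-20332728, plus strand: caggctggagaTGATGCAAcgcaggaggca
Slc7a11, chr3:50443661-50443690, minus strand: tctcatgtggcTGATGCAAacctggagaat
Slc7a11, chr3:50443642-50443671, plus strand: gggctgcatgaTGATGCAAattctccaggt
Vldlr, chr19:27216809-27216838, minus strand: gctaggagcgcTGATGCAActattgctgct
The match of Asns began 23 bases before the start (position -23), that of Trib3 at +15, those of Atf3 and Nupr1 at -110 and that of Slc1a4 at -4.

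Changes of genes with and without the core overlapped. Of the 9 members with it, 2 fell (Asns and Trib3) and 7 did not pass, with a median log2 fold change of -0.34 and a range from -1.14 to 0.40. Of the 17 without it, 4 fell, 1 rose and 12 did not pass, with a median of -0.19 and a range from -1.21 to 0.53. The cAMP response element TGACGTCA, searched on both strands, was found in 1 member, Ppp1r15a, which did not hold the core, and in 2.03% of genes. The 250 bases before the start in the promoter table are given for Asns, which held the core in capitals, and for Mthfd2 and Slc38a2, which were called lower and higher in all 12 alternatives and held neither motif in this window. For Mthfd2 that start lies inside the annotated span of the gene. The same holds for other members, among them Slc7a11, with the core, and Slc3a2, without it. Which starts were in use in these samples was not tested, so the grouping by core rests on the starts in the promoter table. Elements elsewhere in these genes were not looked for.
Asns, chr6:7693210-7693459, minus strand: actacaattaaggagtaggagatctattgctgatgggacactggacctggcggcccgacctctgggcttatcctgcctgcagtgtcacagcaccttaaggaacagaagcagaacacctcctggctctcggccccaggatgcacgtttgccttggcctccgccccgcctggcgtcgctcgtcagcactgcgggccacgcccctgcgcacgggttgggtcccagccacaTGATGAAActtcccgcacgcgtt
Mthfd2, chr6:83317605-83317854, minus strand: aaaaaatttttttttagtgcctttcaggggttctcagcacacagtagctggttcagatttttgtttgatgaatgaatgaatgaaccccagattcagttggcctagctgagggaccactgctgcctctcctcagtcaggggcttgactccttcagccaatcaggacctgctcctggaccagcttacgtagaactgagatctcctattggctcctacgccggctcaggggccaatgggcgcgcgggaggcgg
Slc38a2, chr15:96699729-96699978, minus strand: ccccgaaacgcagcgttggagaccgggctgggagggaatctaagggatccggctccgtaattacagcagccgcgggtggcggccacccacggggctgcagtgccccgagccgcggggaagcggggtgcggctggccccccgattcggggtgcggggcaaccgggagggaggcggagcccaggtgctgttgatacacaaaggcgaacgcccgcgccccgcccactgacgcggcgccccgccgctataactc

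Among the 11 regulators of the stress response, 3 fell and 8 did not pass. Counts by role stand beside the 10.3% of all genes called in each direction. Atf4 itself (gene ID 11911, chromosome 15, 80255184 to 80257545) was at 107, 98.5 and 101 CPM in co-culture libraries 1 to 3 and at 155, 126 and 120.4 CPM in control libraries 4 to 6. Every co-culture library was thus below every control, and control library 4 was the highest. The means were 102.2 ± 4.56 CPM (SD, n = 3) and 133.9 ± 18.7 CPM, which is -0.39 ± 0.11 on the log2 scale (estimate ± SE, with an edgeR adjusted p of 0.0441). The call held without control library 4 or 6. It was lost if co-culture library 1, 2 or 3 or control library 5 was dropped, with edgeR adjusted p of 0.102, 0.147, 0.144 and 0.0713 in that order, and with unscaled library totals (-0.28, 0.079). Over the 12 alternatives the adjusted p ran from 0.00225 to 0.147 and the change from -0.44 to -0.27. These are mRNA levels, and the amount of ATF4 protein was not measured.

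Atf5, a leucine zipper factor that like ATF4 is translated under stress (gene ID 107503, chromosome 7, 44812256 to 44816658), was at 61.1, 56.5 and 56.5 CPM in co-culture and at 66.5, 85.7 and 81.5 CPM in controls. The groups did not overlap, and here control library 4 was the lowest control. Atf5 fell by 0.42 ± 0.10 (edgeR adjusted p = 0.0318), and the call was lost if any library but control library 4 was dropped. The edgeR adjusted p was then 0.0795, 0.114 and 0.120 for co-culture libraries 1 to 3 and 0.0871 and 0.119 for control libraries 5 and 6. The call was also lost with unscaled library totals, which gave -0.33 and the highest adjusted p of the alternatives (2.87e-05 to 0.167). Exons of Atf5 overlap those of Nup62 on the other strand.

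Trib3, which is induced by ATF4 and CHOP and in turn restrains them (gene ID 228775, chromosome 2, 152337425 to 152344060), fell further than Atf4 and Atf5. It was at 3.96, 2.98 and 3.42 CPM in co-culture, from 76, 54 and 64 reads, and at 7.91, 8.15 and 6.84 CPM in controls, from 128, 148 and 126 reads. The lowest control was well above the highest co-culture library. Trib3 fell by 1.14 ± 0.14 on the log2 scale (edgeR adjusted p = 0.00287) and kept its call in all 12 alternatives, at edgeR, DESeq2 or limma adjusted p of 8.38e-06 to 0.0215.

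A further 3 regulators did not pass in edgeR with all libraries but passed without control library 4 and in limma with quality weights. Ddit3, which encodes the death-associated factor CHOP, was at 19.1, 18.6 and 15.6 CPM in co-culture and at 30.3, 23.0 and 21.3 CPM in controls. Nupr1, a small stress-induced chromatin protein, was at 15.4, 15.7 and 12.2 CPM in co-culture and at 42.4, 21.3 and 21.3 CPM in controls. In both genes the groups did not overlap and control library 4 was far above the other controls. The changes were -0.48 ± 0.16 for Ddit3 (edgeR adjusted p = 0.0707) and -0.97 ± 0.29 for Nupr1 (0.0583). Without control library 4 they were smaller, -0.32 and -0.56, but passed (edgeR adjusted p = 0.0231 and 0.00167; 0.0188 to 0.214 and 0.00167 to 0.184 over the alternatives). With all libraries, limma gave -0.36 for Ddit3 (adjusted p = 0.0188) and -0.64 for Nupr1 (0.0052), and Nupr1 also passed in DESeq2's Wald test (-0.95, adjusted p = 0.00567) and in edgeR with unscaled library totals (-0.84, 0.0458). Ddit3 shares exonic sequence with the methionyl-tRNA synthetase gene Mars on the other strand.

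Ppp1r15a, the stress-induced subunit that directs a phosphatase to eIF2 alpha, was at 21.5, 20.9 and 19.4 CPM in co-culture and at 20.6, 24.1 and 25.6 CPM in controls. The groups overlapped through control library 4, and the change was -0.19 ± 0.10 with all libraries (edgeR adjusted p = 0.248) and -0.27 without that control (0.0191; 0.0173 to 0.700 over the alternatives). In limma, with all libraries, it was -0.28 (adjusted p = 0.0173).

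The other 5 regulators did not pass with any library left out. Atf3, another stress-induced zipper factor, had 10 to 28 reads per library and a change of -0.53 ± 0.32. Chac1, which breaks down glutathione, had 21 to 35 reads per library and -0.41 ± 0.19. Cebpb, a C/EBP partner of ATF4, was at 80.0 to 91.0 CPM with co-culture and 78.2 to 87.2 CPM in controls (0.06 ± 0.08). Sesn2, a leucine sensor that restrains mTORC1, and Vldlr, a lipoprotein receptor, had changes of 0.12 each, with SEs of 0.09 and 0.10. Without control library 4 these changes were 0.03 and 0.09. No regulator was called higher by edgeR, and the count of higher regulators was 0 also at an unadjusted p under 0.05, with DESeq2 and with limma.

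**Figure D2:**
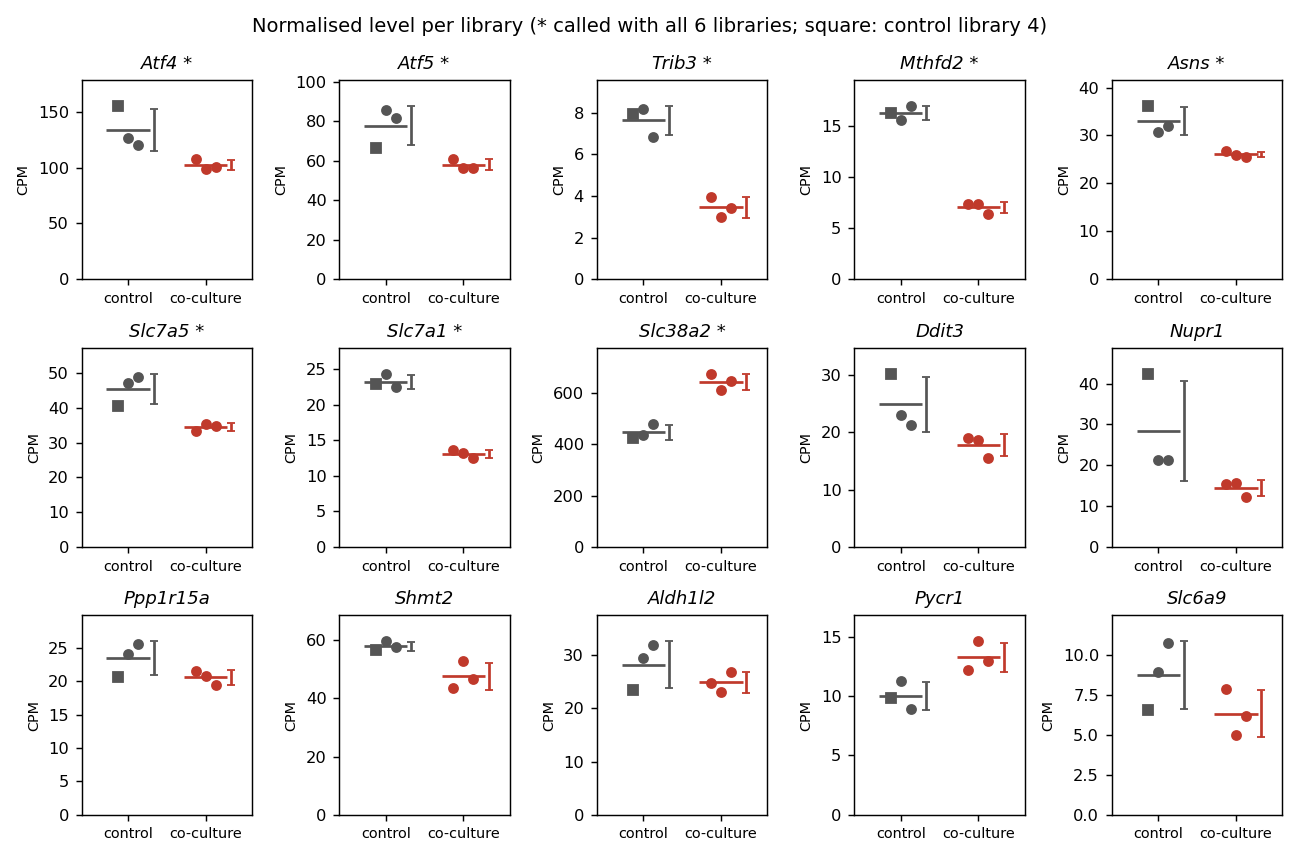
Normalised level (CPM, y axis from 0) in each library of the 8 genes called with all 6 libraries (asterisk) and the 7 called with 1 library left out; points are libraries, horizontal lines are means, vertical bars are SDs (n = 3), and the square is control library 4. In Mthfd2, Trib3, Slc7a1 and Slc38a2 the gap between groups exceeds the spread within them, whereas in Nupr1 and Ddit3 control library 4 lies apart from the other controls.

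Among the 10 enzymes, 2 fell and 8 did not pass. Mthfd2 oxidises methylene-tetrahydrofolate in mitochondria, a step of the route from serine to formate (gene ID 17768, chromosome 6, 83305704 to 83326011). It was at 7.34, 7.34 and 6.36 CPM in co-culture and at 16.3, 15.6 and 16.95 CPM in controls. Controls were close together, library 4 included, and all far above any co-culture library. Mthfd2 fell by 1.21 ± 0.10 on the log2 scale (edgeR adjusted p = 0.000567) and was called in all 12 alternatives (2.9e-11 to 0.00561). Its fall and that of Trib3 lay within their SEs of each other, and Trib3 fell further without co-culture library 1 (-1.251 against -1.246) or control library 6 (-1.191 against -1.156). Its main transcript, NM_008638, was the only one of 61 member transcripts tested that passed (-1.24 ± 0.14, edgeR adjusted p = 0.0195), where 1.91% of all transcripts did. Leaving out control library 4 gave 3 member transcripts that fell, and leaving out any other library gave 0.

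The rest of the mitochondrial folate route did not move with Mthfd2 to that extent. Shmt2, which turns serine into glycine and feeds the route, was at 43.6, 52.8 and 46.5 CPM in co-culture and at 56.7, 59.6 and 57.6 CPM in controls. The groups did not overlap, but the change of -0.28 ± 0.09 missed the threshold (edgeR adjusted p = 0.0574). It passed without control library 4 (-0.30, 0.00902) and without co-culture library 2 (-0.36, 0.0449; 0.00902 to 0.311 over the alternatives), and in limma with all libraries (-0.30, adjusted p = 0.0104). Aldh1l2, which oxidises formyl-tetrahydrofolate, was at 24.7, 23.0 and 26.9 CPM in co-culture and at 23.4, 29.4 and 31.8 CPM in controls, overlapping through control library 4 (-0.18 ± 0.13, edgeR adjusted p = 0.360, and -0.30 and 0.0124 without that library; 0.0124 to 0.777 over the alternatives). Limma with all libraries called it as well (-0.28, adjusted p = 0.0289). Mthfd1l, which releases formate, was at 21.0 to 25.2 CPM with co-culture and 21.8 to 24.3 CPM in controls (0.03 ± 0.10).

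Serine synthesis itself did not pass at any step. Phgdh, the entry enzyme from glycolysis, was at 118, 122 and 119 CPM in co-culture and at 128, 117 and 115 CPM in controls, a change of -0.003 ± 0.065 whose sign depended on the scaling. Psat1, the transaminase that follows, was at 81.6 to 86.1 CPM and 73.6 to 97.7 CPM (-0.01 ± 0.11, its sign likewise). Psph, the last step, was at 11.3 to 13.5 CPM with co-culture and 12.99 to 21.7 CPM in controls, highest in control library 4 (-0.41 ± 0.21, edgeR adjusted p = 0.207). Without that library the change of Psph was -0.15 (edgeR adjusted p = 0.298).

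Asns, which makes asparagine from aspartate and glutamine (gene ID 27053, chromosome 6, 7675165 to 7693209), was at 26.7, 25.9 and 25.5 CPM in co-culture and at 36.2, 30.7 and 32.0 CPM in controls. The co-culture libraries were close together and below every control. Asns fell by 0.34 ± 0.09 (edgeR adjusted p = 0.0338), a call lost if co-culture library 1, 2 or 3 or control library 6 was dropped, with edgeR adjusted p of 0.0966, 0.112, 0.126 and 0.0785 in that order. With all libraries it was also lost with unscaled library totals (-0.23, edgeR adjusted p = 0.115) and in DESeq2's Wald test (-0.33, adjusted p = 0.0662), and over the alternatives the adjusted p ran from 0.00643 to 0.126. Of the proline enzymes, Pycr1, which completes the synthesis, was at 12.2, 14.6 and 12.99 CPM in co-culture and at 9.89, 11.3 and 8.91 CPM in controls. It was the only enzyme whose co-culture libraries were all above the controls. Its change of 0.40 ± 0.12 missed the threshold (edgeR adjusted p = 0.0635) but passed without control library 4 (0.39, 0.0268; 0.0225 to 0.195 over the alternatives). With all libraries it also passed with unscaled library totals (0.51, edgeR adjusted p = 0.0455) and in limma (0.41, adjusted p = 0.0225). Aldh18a1, the first enzyme of proline synthesis from glutamate, was at 69.2 to 78.4 CPM with co-culture and 64.6 to 75.4 CPM in controls (0.05 ± 0.08).

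**Figure D3:**
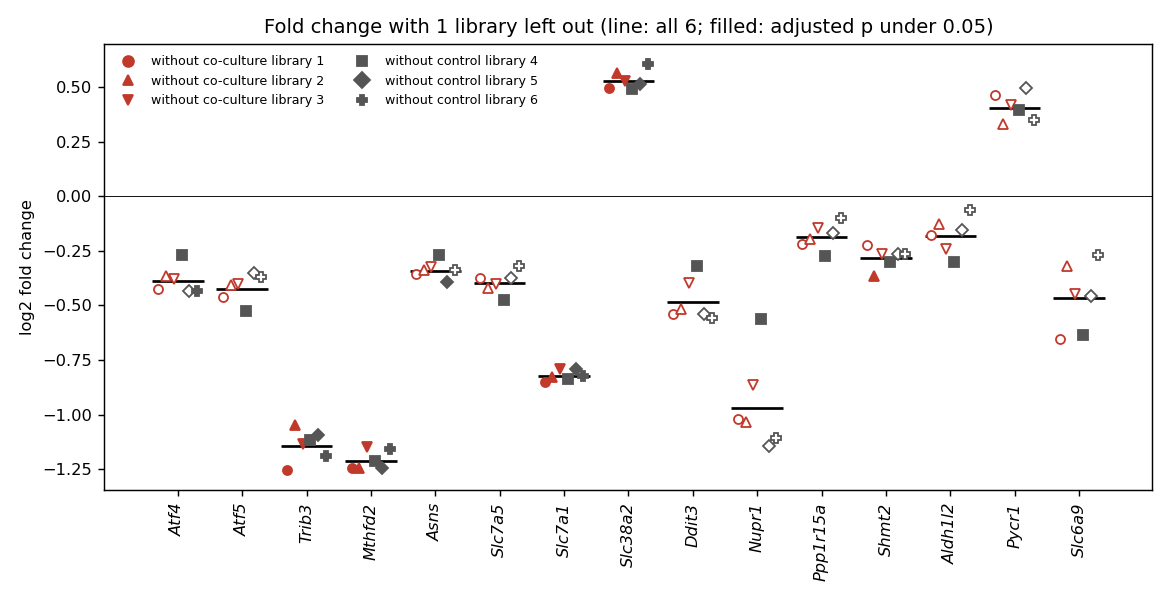
Log2 fold change (y axis) of 15 genes (x axis) with each library left out in turn; the line is the value with all 6 libraries, shapes name the library left out, red for co-culture and grey for control, and filled symbols passed at an adjusted p under 0.05. Trib3, Mthfd2, Slc7a1 and Slc38a2 are filled throughout, and the 7 genes on the right are filled without control library 4.

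Among the 10 transporters, 1 rose, 2 fell and 7 did not pass. Slc38a2 (gene ID 67760, chromosome 15, 96687392 to 96699728) was at 674, 612 and 648 CPM in co-culture and at 424, 438 and 478 CPM in controls. The lowest co-culture library was above the highest control. It rose by 0.53 ± 0.08 (edgeR adjusted p = 0.00684) and was called in all 12 alternatives (4.06e-05 to 0.0406). Slc38a1, its close relative beside it on chromosome 15 (96571418 to 96643438), was at 62.2, 66.5 and 63.7 CPM in co-culture and at 53.9, 60.5 and 64.7 CPM in controls, and missed the threshold (0.10 ± 0.08, edgeR adjusted p = 0.413). Without control library 4 the change of Slc38a1 was 0.03.

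The 2 transcripts of Slc38a2 were used in different shares. NM_001355633 took 15.9%, 11.55% and 10.1% of the gene's reads in co-culture and 3.92%, 6.79% and 5.805% in controls, and NM_175121 took the rest. The share was higher in every co-culture library, and edgeR's diffSpliceDGE gave a Simes adjusted p of 0.0121. Slc38a2 was the only one of 15 members tested in this way that passed, against 3.39% of all genes. The call was lost without co-culture library 1 (adjusted p = 0.0685) and control library 6 (0.0506), with values from 0.00964 to 0.0685 over the 6 libraries left out. Without control library 5 the members that passed numbered 2. Neither transcript passed on its own (edgeR adjusted p = 0.0578 and 0.0599). Reads per transcript are estimates, and how much sequence the 2 transcripts share was not examined.

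Slc7a1, the main carrier of arginine and lysine into most cells (gene ID 11987, chromosome 5, 148327410 to 148399904), was at 13.6, 13.2 and 12.6 CPM in co-culture and at 22.9, 24.4 and 22.5 CPM in controls. Each group was tight and the gap between them wide. Slc7a1 fell by 0.82 ± 0.08 (edgeR adjusted p = 0.0012) and was called in all 12 alternatives (3.11e-07 to 0.0116). Slc7a3, a related cationic carrier, had 7 to 9 reads in control libraries 4 and 5, 20 in control library 6 and 16 to 18 in co-culture, and did not pass (0.45 ± 0.37).

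Slc7a5, which exchanges leucine and other large neutral amino acids (gene ID 20539, chromosome 8, 121881146 to 121907686), was at 33.3, 35.5 and 34.8 CPM in co-culture and at 40.5, 47.1 and 48.9 CPM in controls. Control library 4 was the lowest control but still above every co-culture library. Slc7a5 fell by 0.40 ± 0.09 (edgeR adjusted p = 0.0228), a call lost if any library but control library 4 was dropped. The edgeR adjusted p was then 0.0947, 0.0738 and 0.0877 for co-culture libraries 1 to 3 and 0.0719 and 0.102 for control libraries 5 and 6. The call was also lost with unscaled library totals, which gave -0.30 and the highest adjusted p of the alternatives (0.000105 to 0.159). Slc3a2, the heavy chain with which Slc7a5 and Slc7a11 form dimers, was at 84.7, 83.3 and 83.4 CPM in co-culture and at 87.2, 89.8 and 84.9 CPM in controls (-0.06 ± 0.06, edgeR adjusted p = 0.489). Its groups did not overlap, but they lay very close together, and with unscaled library totals the sign turned (0.05). Slc7a11, which imports cystine in exchange for glutamate, was at 40.0 to 48.3 CPM and 36.6 to 46.1 CPM (0.06 ± 0.12).

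Slc6a9, a glycine transporter, was at 7.86, 4.96 and 6.15 CPM in co-culture and at 6.55, 8.92 and 10.75 CPM in controls. The groups overlapped, and the change of -0.47 ± 0.23 (edgeR adjusted p = 0.205) passed only without control library 4 among the libraries left out (-0.63, 0.0108; 0.0108 to 0.471 over the alternatives). Limma with all libraries called it too (-0.66, adjusted p = 0.0123). The sodium-coupled exchangers Slc1a4, which carries alanine, serine and cysteine, and Slc1a5, which carries glutamine, did not pass, at -0.01 ± 0.10, with a sign that turned under other scalings, and 0.14 ± 0.10. Slc1a5 was at 126 to 135.5 CPM in co-culture and at 101 to 127 CPM in controls, lowest in control library 4. Without that library the change of Slc1a5 was 0.04.

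To compare genes with each other, levels were divided by transcript length. In controls, Slc38a2 and Atf4 led with 102.4 ± 6.42 and 101.4 ± 14.2 CPM per kilobase (SD, n = 3), followed by Nupr1 (80.95 ± 34.9), Phgdh (75.2 ± 4.45) and Cebpb (66.8 ± 3.67). Control ranges of neighbours overlapped among the first 4 of these, while Cebpb lay below Phgdh in every control. Slc7a1 (3.37 ± 0.15), Chac1 (1.31 ± 0.20), Atf3 (0.83 ± 0.09) and Slc7a3 (0.32 ± 0.17) were near the foot of the order. Of 30 neighbouring pairs, 19 had control ranges that overlapped, so the order is only a coarse one. In co-culture Slc38a2 stood alone at 147.7 ± 7.17 CPM per kilobase, with Atf4 next at 77.4 ± 3.45 and then Phgdh at 75.0 ± 1.38. Mthfd2, at 9.03 ± 0.38 CPM per kilobase in controls, went from place 20 to place 25, and Nupr1 from place 3 to place 7. Without control library 4 the control level of Nupr1 was 60.8 CPM per kilobase, at place 5.

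**Figure D4:**
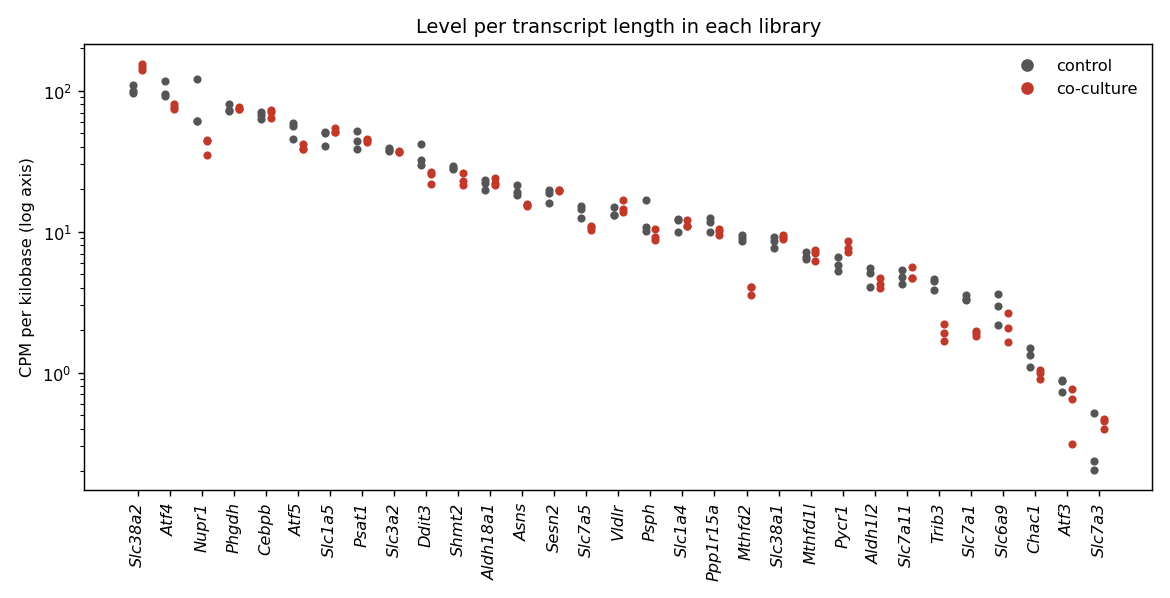
Level per transcript length (CPM per kilobase, log axis) of the 31 genes in the 3 control (grey) and 3 co-culture (red) libraries, ordered by the control mean. The genes span from Slc38a2, above 100, to Slc7a3, below 1, and the 2 colours do not overlap in 14 genes, among them Mthfd2, Trib3, Slc7a1 and Slc38a2.

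Other genes of the same pathways were read from the same fit, in which 10.3% of all genes tested rose and 10.3% fell. Without control library 4, 2445 of 13077 genes rose and 2598 fell. When any other library was left out, 612 to 903 of all genes rose and 598 to 774 fell. Counts of the lists with 1 library left out stand beside these, and whether they differ from them was not tested. Of 17 genes for eIF2 alpha kinases and eIF2 control, 2 fell and 15 did not pass. Eif2ak4 (GCN2), the kinase that senses uncharged tRNA, fell from 42.97 ± 2.43 to 32.4 ± 1.25 CPM (-0.41 ± 0.07, edgeR adjusted p = 0.0111), and Eif2ak3 (PERK), the kinase of the endoplasmic reticulum, from 68.3 ± 3.03 to 56.3 ± 1.64 CPM (-0.28 ± 0.06, 0.0245). The other kinases of the list, Eif2ak1 (-0.17 ± 0.08, edgeR adjusted p = 0.186) and Eif2ak2 (0.38 ± 0.165, 0.156), did not pass. Phosphorylation of eIF2 alpha was not measured. With all libraries, DESeq2 and limma called 1 and 4 genes of this list lower, and 1069 and 2488 of all 12936 genes. At an unadjusted p under 0.05 in edgeR 3 of the list were lower, and the matching number over all genes was not counted. The edgeR count was 4 without control library 4 and 0 if co-culture library 1 or 2 or control library 6 was dropped.

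Of 21 other ATF4 target genes tested, 2 rose, 5 fell and 14 did not pass (median -0.18). The lists share some genes. Cars is also in the list of tRNA synthetases and Herpud1 in that of the unfolded protein response, so their falls count in both. Gadd45a, which responds to growth arrest and DNA damage, fell from 71.1 ± 6.75 to 21.0 ± 2.67 CPM (-1.76 ± 0.12), and Herpud1, a factor of protein degradation at the endoplasmic reticulum, fell by 0.44 ± 0.08. Ndrg1, which is also induced by hypoxia and growth arrest, rose from 24.4 ± 3.22 to 75.7 ± 2.83 CPM (1.63 ± 0.11), and the secreted glycoprotein Stc2 rose by 0.74 ± 0.17. These targets thus went both ways. Those that fell numbered 9 without control library 4 and 1 to 3 without any other library. Of 24 genes for tRNA synthetases and their partners, cytosolic but for the mitochondrial Fars2, which did not pass, 2 rose, 4 fell and 18 did not pass. The methionyl and cysteinyl enzymes Mars and Cars fell by 0.33 ± 0.06 and 0.26 ± 0.06, and the lysyl and glutaminyl enzymes Kars and Qars rose by 0.33 ± 0.08 and 0.25 ± 0.06. Exons of Mars overlap those of Ddit3 on the other strand, and without known strandedness reads of that overlap cannot be told apart. Falls among synthetases numbered 8 without control library 4 and 0 if co-culture library 1 or 2 or control library 6 was dropped, and rises numbered 0 if any one co-culture library or control library 6 was dropped.

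Of 26 other amino acid transporters tested, 3 rose, 5 fell and 18 did not pass. Slc7a2, a second cationic carrier, rose from 74.4 ± 7.91 to 189.8 ± 7.85 CPM (1.35 ± 0.09, edgeR adjusted p = 0.000282), opposite to Slc7a1. Per kilobase, Slc7a2 was at 9.99 ± 1.06 in controls and 25.5 ± 1.05 in co-culture, while Slc7a1 was at 3.37 ± 0.15 and 1.90 ± 0.08, so the rising carrier was also the more abundant one in both groups. Slc38a4, another member of the Slc38a2 family, rose from 37.3 ± 3.24 to 53.9 ± 3.28 CPM (0.53 ± 0.09). Slc43a2, a carrier of large neutral amino acids like Slc7a5, fell from 17.75 ± 2.85 to 7.82 ± 1.05 CPM (-1.18 ± 0.16), and the taurine transporter Slc6a6 fell by 0.51 ± 0.11. The transporters that fell numbered 8 without control library 4 and 1 without any other library.

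Of 30 other folate and methionine cycle enzymes tested, 3 rose, 1 fell and 26 did not pass. The cytosolic folate enzyme Aldh1l1 rose from 32.7 ± 4.53 to 49.8 ± 2.56 CPM (0.61 ± 0.11), whereas its mitochondrial relative Aldh1l2 did not pass. Amt, a protein of the glycine cleavage system, rose by 1.001 ± 0.125, and Ahcyl1, a relative of S-adenosylhomocysteine hydrolase, fell by 0.45 ± 0.09. Those that rose numbered 5 without control library 4, 1 without co-culture library 1 and 2 without any other, and the fall was lost if co-culture library 2 or 3 or control library 6 was dropped. Of 17 other enzymes of glutamine, proline, asparagine and arginine, 3 rose, 1 fell and 13 did not pass. Prodh and Aldh4a1, which break proline down to glutamate in mitochondria, rose from 7.60 ± 1.33 to 13.2 ± 0.07 CPM (0.79 ± 0.13) and from 54.9 ± 5.74 to 79.6 ± 3.76 CPM (0.54 ± 0.09). The single fall was that of the aspartate aminotransferase Got1 (-0.33 ± 0.10, edgeR adjusted p = 0.0496), a call lost when any library but control library 4 was left out. Those that rose numbered 7 without control library 4 and 2 without any other.

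Of 20 genes of the ATF6 and IRE1 arms of the unfolded protein response, 9 fell and 11 did not pass. Of all genes tested, 10.3% fell. All 20 of the list were lower in direction with TMM factors (median -0.32). Those called lower numbered 2 with unscaled library totals, against the 9 with TMM factors. The stress sensor Atf6 fell by 0.52 ± 0.08 and the co-chaperone Dnajc3 by 0.40 ± 0.06. Without control library 4, a fit in which 2598 of 13077 genes fell, those of the list that fell numbered 14. They numbered 3 or 4 without any other library. No gene of this list was called higher by edgeR, DESeq2 or limma or at an unadjusted p under 0.05. Of 21 genes of amino acid sensing and mTORC1, 1 rose, 4 fell and 16 did not pass. Deptor, a subunit that inhibits mTOR, fell from 83.3 ± 11.9 to 32.45 ± 1.96 CPM (-1.36 ± 0.12, edgeR adjusted p = 0.000682). The arginine sensor Castor1 rose by 0.70 ± 0.10, while its relative Castor2 fell by 0.81 ± 0.12. The genes that fell numbered 8 without control library 4 and 3 or 4 without any other library.

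**Figure D5:**
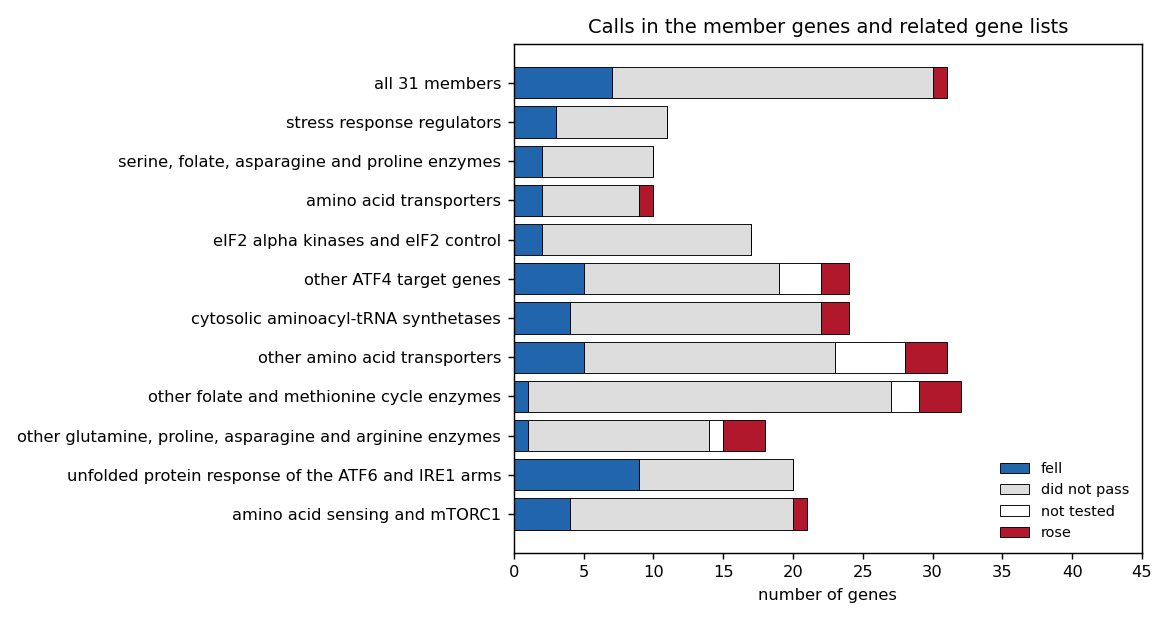
Number of genes (x axis) that fell, did not pass, were not tested or rose in the 31 members, in their 3 roles and in 8 related gene lists. Calls are a minority in each bar, lower calls are most numerous in the unfolded protein response list (9 of 20), and higher calls reach 3 in 3 of the lists.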

How the data were processed

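RNA-seq libraries of 3 co-culture and 3 control samples were grouped by their labelled treatment. HISAT was the aligner, per the labels' protocols, and mm10 the build, per the submitters' processing notes. Which counter, annotation, strand setting and versions were used is not given in the sources used here. The estimated counts per gene and RefSeq transcript were deposited by the authors and need not be whole. The FPKM values deposited by the authors scale counts by length and depth, per the file headers, and served only to derive gene lengths. Control columns are numbered 4 to 6 and control labels 1 to 3, so these columns were assigned to the group alone, and 21 FPKM and TPM columns were not used.

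Counts were rounded and tested with edgeR 4.0.16 in R 4.3.3 (filterByExpr, TMM factors of 0.8855 in control library 4 and 1.0005 to 1.0388 elsewhere, quasi-likelihood test with no covariate, Benjamini-Hochberg adjustment over all genes tested). The SE was taken as |log2 fold change| over the root of F. CPM are counts per 1000000 of the TMM-scaled library. The gene-level fits were tested on simulated counts with the same dispersion for every gene and no library set apart as control library 4 was. The transcript fits and the motif search were not tested in this way. Alternatives were DESeq2 1.42.0 (size factors in edgeR, and its Wald test), unscaled library totals, no filter, at least 1 CPM in 3 libraries, limma 3.58.1 voom with quality weights, and each library left out.

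Members and gene lists were chosen with earlier results of these data known. Values per library are given for members called with all libraries or with 1 left out, and from each related list the called genes of lowest p, up to 2 in each direction, are named. Of 17023 gene IDs, 16975 matched a RefSeq table of GRCm38.p6, the assembly of mm10, which gave the coordinates. Exons of 8 members (Aldh1l2, Atf5, Cebpb, Ddit3, Ppp1r15a, Psph, Shmt2 and Slc6a9) overlap a gene on the other strand, and without known strandedness the reads of such pairs cannot be told apart. Some counts of Slc3a2 and Slc7a11 were not whole. Listed pathway symbols with no row (Mars1, Pycr3 and Slc38a5) were not analysed here.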

Additional observations from a re-analysis of the deposited data

How the results depend on the processing

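Trib3, Mthfd2, Slc7a1 and Slc38a2 kept direction and call in all 12 alternatives. Unscaled library totals ended the calls of Atf4, Atf5, Asns and Slc7a5. Of 371 results for members under alternatives, 303 kept direction and side of the threshold, 23 lost a call, 18 gained one and 27 turned sign. No paired analysis was possible because control columns carry numbers that match no labelled control. With unscaled library totals, 676 of all genes fell, 2 members rose and 4 fell, and the genes that fell numbered 0 for eIF2 control, 1 for other ATF4 targets, 0 for tRNA synthetases, 1 for other transporters, 0 for folate enzymes, 0 for glutamine and proline enzymes, 2 for the unfolded protein response and 2 for mTORC1. With limma voom, 2201 genes rose and 2488 fell, 2 members rose and 13 fell, 7 glutamine and proline enzymes rose, and the genes that fell numbered 4 for eIF2 control, 9 for other transporters, 3 for folate enzymes, 14 for the unfolded protein response and 8 for mTORC1. With DESeq2's Wald test, 1069 of all genes fell. Those of the lists that fell numbered 1 for eIF2 control, 3 for other ATF4 targets and 1 for synthetases. They numbered 2 for other transporters, 2 for folate enzymes and 0 for glutamine and proline enzymes. Synthetases that fell numbered 2 with DESeq2 size factors and 2 with no filter, and glutamine and proline enzymes 0 with either. With 1 library left out, 612 to 2445 genes rose and 598 to 2598 fell, 1 to 2 members rose and 3 to 13 fell, and 0 to 3 member transcripts fell, while 0 to 2 members changed transcript use. Per list, the ranges of rises and falls were 0 to 2 and 0 to 4 for eIF2 control, 1 to 3 and 1 to 9 for other ATF4 targets, 0 to 3 and 0 to 8 for synthetases, 2 to 4 and 1 to 8 for other transporters, 1 to 5 and 0 to 3 for folate enzymes, and 2 to 7 and 0 to 1 for glutamine and proline enzymes. Falls ranged from 3 to 14 for the unfolded protein response and from 3 to 8 for mTORC1. The sign turned, with no call, for Phgdh (0.010 with DESeq2 size factors and with DESeq2, 0.105 with library totals, 0.040 with limma), Psat1 (0.001, 0.001, 0.1 and 0.083 in the same order), Slc1a4 (0.005, 0.005 and 0.091 for the first 3) and Slc3a2 (0.046 with library totals). With 1 library left out, values crossed 0 for Phgdh (-0.024 to 0.046), Psat1 (-0.109 to 0.096), Slc1a4 (-0.095 to 0.055), Mthfd1l (-0.022 to 0.106), Slc7a11 (-0.032 to 0.148) and Aldh18a1 (-0.006 to 0.128). The cause was not tested. Atf3, Chac1 and Slc7a3 had 7 to 35 reads per library, and what could be detected at that depth was not tested.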
